A study of Homo sapiens with 6 samples.

Results

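The 4 HOX clusters of the human genome were examined in the H3K4me3 and H3K27me3 peak lists of H1299 cells, an established line of human non-small cell lung cancer. Members were all listed intervals that overlapped 1 of 4 hg19 windows: HOXA at chr7:27130000-27245000, HOXB at chr17:46600000-46810000, HOXC at chr12:54330000-54455000 and HOXD at chr2:176950000-177060000. The windows are 115, 210, 125 and 110 kb long, and 38 HOX genes were named as their members. Of the 275570 intervals in the 4 lists, 281 met the rule, 59 in HOXA, 81 in HOXB, 75 in HOXC and 66 in HOXD. By library, these were 120 H3K4me3 intervals in control and 113 after metformin, and 26 H3K27me3 intervals in control and 22 after metformin.

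The study compared H1299 cells with no treatment (control) and H1299 cells given 5 mM metformin, a biguanide drug used against type 2 diabetes. Both groups are the same line at the same range of passages in the same medium, and the length of treatment is not given in the sources used here. Chromatin was cross-linked, cut with micrococcal nuclease and precipitated with an antibody against each mark, with 1 library for each mark and condition. With no replicates, no difference between conditions could be tested and no p-value is given; every comparison below is between single libraries. The 2 input libraries were not analysed here.

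HOX genes code for homeodomain transcription factors that give cells their position along the body axis, and their order on the chromosome matches the order of their use from head to tail. The HOX clusters are classical targets of both Polycomb and Trithorax-group proteins: Polycomb repressive complex 2 lays down H3K27me3 over silent genes, and MLL-type methyltransferases lay down H3K4me3 at active promoters. In differentiated cells a cluster is often divided into an H3K4me3 part and an H3K27me3 part, and in stem cells many developmental promoters carry both marks, a state called bivalent. Low-numbered HOX genes act toward the head (HOXB1 in the hindbrain), and genes numbered 13 act at the far end (HOXA13 and HOXD13 in the hand and foot, HOXB13 in the prostate and tail, HOXC13 in hair and nail). RefSeq gene order, used here for names and order only, puts HOXA2 and HOXB1 at the low-coordinate ends of their windows and HOXA13 and HOXB13 at the high ends, whereas HOXC13 and HOXD13 lie at the low ends of theirs and HOXC4 and HOXD1 at the high ends.

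H3K4me3 is usually found at promoters rich in CpG dinucleotides, so the promoter sequence of 1 gene at an end of each cluster is shown to illustrate how far these promoters differ. Each is the 250 bases upstream of a RefSeq start on GRCh38.p14, 5′ to 3′ on the gene's own strand, with every CpG in capitals.
HOXA13: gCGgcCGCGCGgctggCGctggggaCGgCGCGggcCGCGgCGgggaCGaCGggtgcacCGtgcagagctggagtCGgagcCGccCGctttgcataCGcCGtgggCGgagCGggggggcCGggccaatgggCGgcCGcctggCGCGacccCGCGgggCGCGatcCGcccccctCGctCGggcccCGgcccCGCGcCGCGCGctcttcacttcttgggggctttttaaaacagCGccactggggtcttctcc
HOXB1: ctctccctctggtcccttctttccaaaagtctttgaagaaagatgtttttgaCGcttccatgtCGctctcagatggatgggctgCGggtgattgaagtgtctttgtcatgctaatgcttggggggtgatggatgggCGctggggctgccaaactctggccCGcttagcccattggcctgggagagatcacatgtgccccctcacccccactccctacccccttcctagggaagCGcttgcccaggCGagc
HOXC4: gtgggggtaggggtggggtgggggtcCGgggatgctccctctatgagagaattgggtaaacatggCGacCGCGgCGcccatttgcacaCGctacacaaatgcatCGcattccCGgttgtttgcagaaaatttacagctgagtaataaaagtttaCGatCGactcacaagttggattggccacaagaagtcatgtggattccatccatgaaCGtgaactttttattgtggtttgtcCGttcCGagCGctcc
HOXD13: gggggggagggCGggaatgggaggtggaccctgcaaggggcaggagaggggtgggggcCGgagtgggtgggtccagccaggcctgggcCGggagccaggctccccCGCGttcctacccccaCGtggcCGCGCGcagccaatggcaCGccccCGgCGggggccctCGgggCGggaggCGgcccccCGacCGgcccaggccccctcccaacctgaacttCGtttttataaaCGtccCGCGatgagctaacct
The HOXA13 sequence holds 40 CpG at 78.0% G and C, HOXD13 holds 21 at 74.0%, HOXC4 holds 14 at 50.8% and HOXB1 holds 7 at 57.2%. RefSeq's table had a promoter for 20 of the 38 genes. Of these, 17 (85.0%) held at least 10 CpG, against 51.9% of 27305 genes with a promoter in the table, and their median was 20.5 CpG against 11.0. These figures describe mainly HOXA (9 promoters) and HOXD (8), since HOXB gave 1 and HOXC gave 2, for HOXC4 and HOXC5, with the same sequence. With 1 start counted for each gene, HOXD4 had the fewest, at 4, and HOXA13 the most. HOXA3 was counted by its start with 11 CpG, but its 7 listed starts held 0 to 26 CpG. The figures therefore depend on the start that is counted. The promoters were not placed on hg19, so no interval below is assigned to a single gene's promoter.

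H3K4me3 covered a larger share of each of the 4 windows than of the sequence beside it, and H3K27me3 was extensive in HOXC alone. In control cells H3K4me3 intervals covered 24.9% of HOXA (28.7 kb, 28 intervals), 25.5% of HOXB (53.6 kb, 40 intervals), 28.4% of HOXC (35.4 kb, 26 intervals) and 14.1% of HOXD (15.6 kb, 26 intervals). The whole control list covered 1.68% of the span between its outermost intervals on chromosomes 1 to 22 and X. Flanks as long as each window were emptier, with 0% on both sides of HOXA. The low and high sides had 2.89% and 6.94% for HOXB, 0% and 0.185% for HOXC, and 8.09% and 2.14% for HOXD. The contrast was weakest on the low side of HOXD, 8.09% against 14.1% in the window. The fullest H3K4me3 flank was thus the one next to HOXD13, where EVX2, another homeobox gene, is the neighbour.

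H3K27me3 in control cells covered 15.9% of HOXC (19.9 kb, 14 intervals), 2.14% of HOXB (4.50 kb, 6 intervals), 1.90% of HOXD (2.09 kb, 5 intervals) and 0.308% of HOXA (0.354 kb, 1 interval). The whole control list covered 2.91% of its span, so HOXA, HOXB and HOXD lay below the list and HOXC above it. After metformin the shares were 22.3% in HOXC, 4.49% in HOXB, 3.23% in HOXD and 0.818% in HOXA, against 3.18% for the list. HOXA lay below the list, and HOXD, with 3 intervals, was almost level with it. The HOXB share rests mainly on 1 interval of 6709 bp with a deposited value of 1.45. Beyond the HOXC13 end of HOXC, 76.7% of the flank was under H3K27me3, more than in the window itself. The other flanks ranged from 0% to 14.4%.

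**Figure D1:**
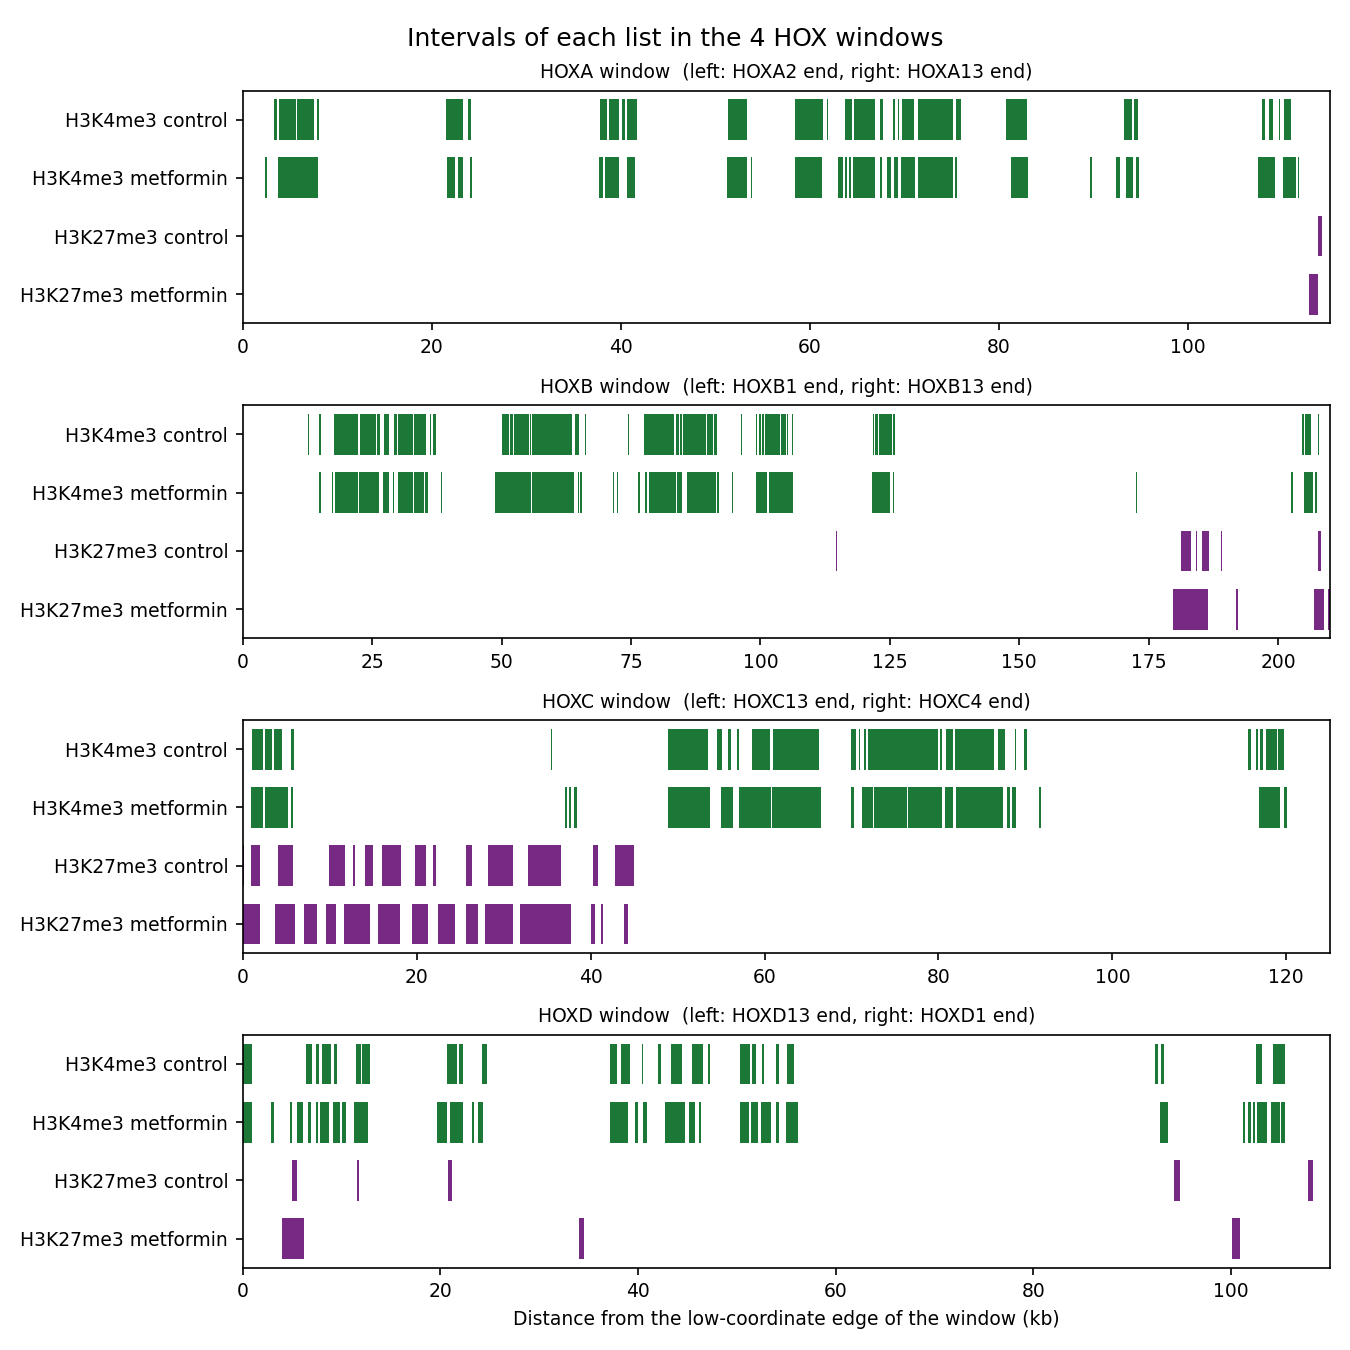
Position of every listed interval in the 4 windows, by mark and condition, as distance in kb from the low-coordinate edge of each window; blocks are intervals drawn to scale, H3K4me3 in green and H3K27me3 in purple. HOXC is the window with a long H3K27me3 part, over its first 45.0 kb in control and 44.3 kb after metformin, and HOXB has a long stretch with neither mark between its HOXB1 side and HOXB13.

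**Figure D2:**
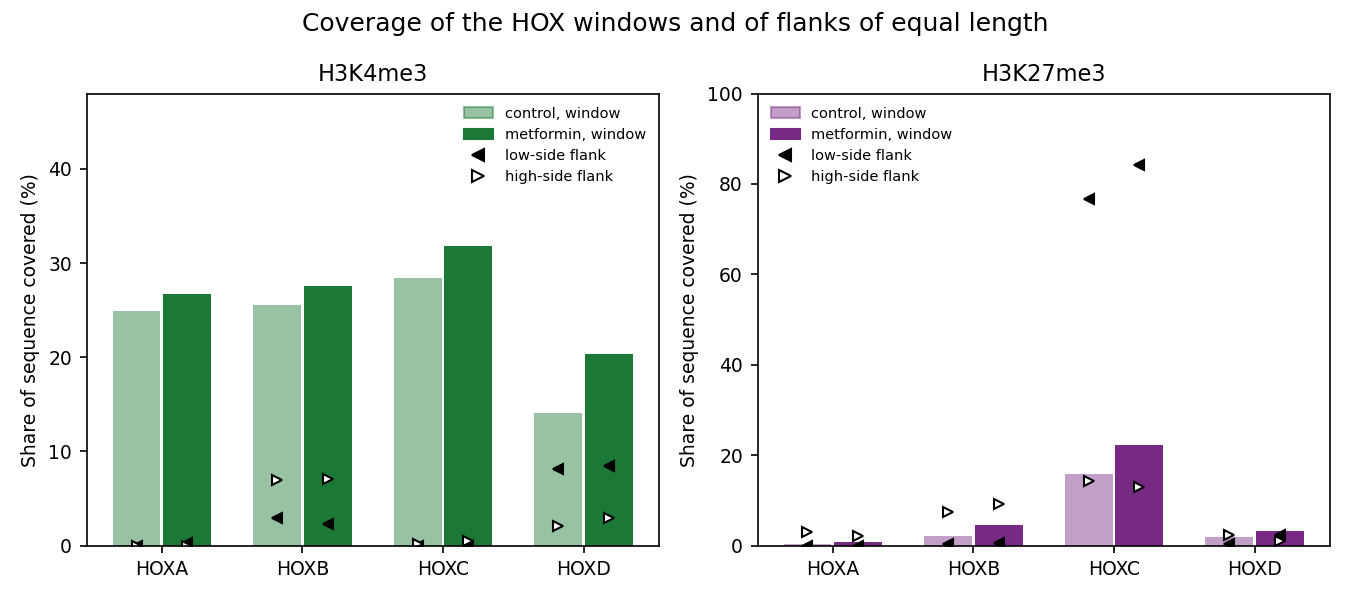
Share of each window (bars) and of flanks of equal length (triangles) covered by each mark, in percent, for control and metformin, 1 library each. H3K4me3 covered 14.1 to 31.8% of a window and at most 8.45% of a flank, and the flank beyond the HOXC13 end was 76.7 and 84.2% under H3K27me3.

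HOXC was divided between the marks. From the window's HOXC13 end to the end of its last H3K27me3 interval, 45.0 kb in control, the 14 H3K27me3 intervals covered 44.3% of the sequence and 5 H3K4me3 intervals covered 7.52% (3.38 kb). On the other side, the 80.0 kb toward HOXC4, 21 H3K4me3 intervals covered 40.1% (32.1 kb). That side has no H3K27me3 because the line was drawn at the last H3K27me3 interval. After metformin the H3K27me3 side was 44.3 kb long, 63.0% under H3K27me3 (27.9 kb, 14 intervals) and 11.5% under H3K4me3 (5.09 kb, 6 intervals), and 15 H3K4me3 intervals covered 43.0% of the other side (34.7 kb).

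The H3K4me3 edge of this division lay at nearly the same base in both libraries. The first H3K4me3 interval past the H3K27me3 side was chr12:54378942-54383490 in control and chr12:54378951-54383745 after metformin, so its starts were 9 bp apart. The last H3K27me3 interval was chr12:54372811-54374959 in control and chr12:54373834-54374261 after metformin, so its end lay 698 bp nearer to HOXC13 after metformin. The stretch with neither mark between the 2 parts measured 3982 bp in the control library and 4689 bp in the metformin library. This H3K27me3 edge depends on intervals of low deposited value, 1.42 in control and 1.46 after metformin. With values under 1.5 dropped, the last H3K27me3 interval was chr12:54362807-54366630 in control and chr12:54371203-54371369 after metformin. The H3K27me3 end then lay nearer to HOXC13 in control, the reverse order.

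The H3K27me3 side of HOXC was the end of a much longer run. With H3K27me3 intervals joined over gaps of up to 5 kb, a distance chosen after the values were seen, the run reached from chr12:54125226 to 54374959 in control, 250 kb with 56 intervals covering 69.5%. After metformin it reached from chr12:54126465 to 54374261, 248 kb with 44 intervals covering 79.5%. In both libraries more than 200 kb of it (205 and 204 kb) lay outside the window, on the side where CALCOCO1 is the next protein-coding gene. With gaps of up to 2 kb the run that holds the window's low edge measured 25.0 kb in the control library and 94.0 kb in the metformin library, so its length depends on the distance allowed.

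**Figure D3:**
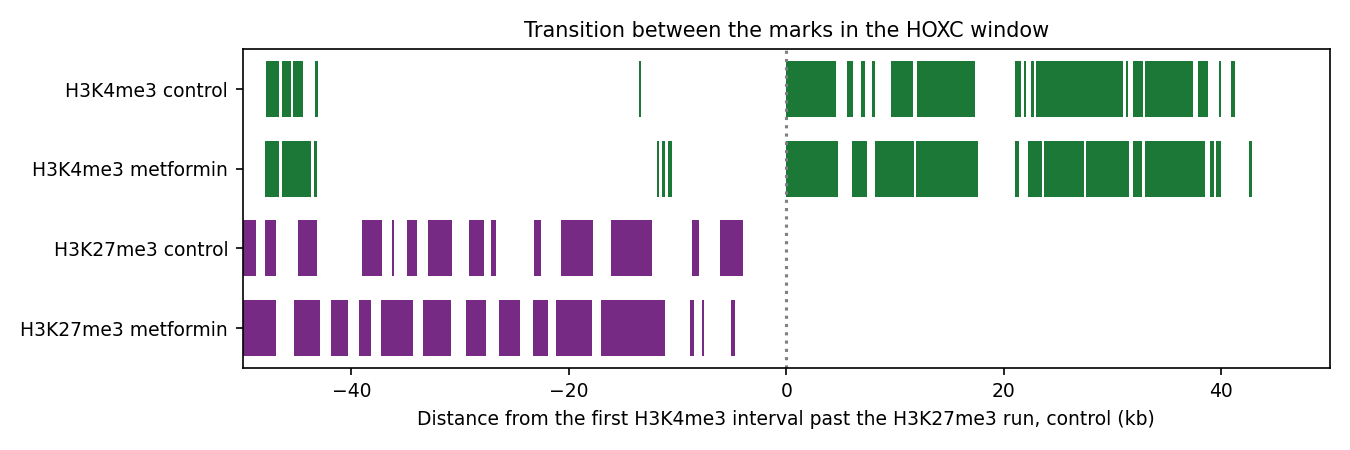
Intervals of both marks around the division of HOXC, as distance in kb from the start of the first H3K4me3 interval past the H3K27me3 run in control (dotted line). The H3K4me3 starts of the 2 libraries were 9 bp apart, and the last listed H3K27me3 interval, of low value in both, ended 3982 bp (control) and 4689 bp (metformin) before them.

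HOXB had dense H3K4me3 on its HOXB1 side and far less toward HOXB13. It was split at the start of its longest stretch with neither mark in control, chr17:46725913-46781246 (55.3 kb). The HOXB13 side thus holds this stretch by the choice of the line, which lowers its shares of both marks. The 126 kb on the HOXB1 side were 41.2% under H3K4me3 in control (51.8 kb, 37 intervals) and 44.0% after metformin (55.5 kb, 27 intervals). This side held 1 H3K27me3 interval of 171 bp in control and none after metformin. The 84.1 kb on the HOXB13 side were 2.18% and 3.08% under H3K4me3, and 5.15% and 11.2% under H3K27me3. The whole lists covered 1.68% and 1.88% of their spans for H3K4me3, and 2.91% and 3.18% for H3K27me3. In RefSeq order HOXB13 is set apart from HOXB9 by PRAC1, PRAC2 and noncoding genes.

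HOXA carried H3K4me3 from end to end and almost no H3K27me3. Its longest stretch with neither mark measured 13.7 kb in the control and 13.6 kb in the metformin lists, the shortest of the 4 windows (HOXC 25.4 and 25.2 kb, HOXD 36.6 kb in both). Its single H3K27me3 interval lay at the HOXA13 end in each library, at chr7:27243781-27244134 (354 bp) in control and chr7:27242791-27243731 (941 bp) after metformin. These 2 intervals did not overlap and were 49 bp apart. Beyond HOXA13 lie the noncoding gene HOTTIP and then EVX1.

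HOXD had the least H3K4me3 of the windows. Its H3K4me3 intervals averaged 706 bp in the control list and 772 bp in the metformin list, the lowest mean of the 4 windows in both libraries (HOXA, the next, had 1023 and 1060 bp). Its medians of 538 and 666 bp were within the range of the other windows. Its 5 control H3K27me3 intervals were 175 to 600 bp long and lay apart from each other (the longest at chr2:177044200-177044799), from chr2:176954994 near HOXD13 to chr2:177058306 near HOXD1. After metformin there were 3, of which chr2:176953984-176956159 (2176 bp) was the longest.

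Broad H3K4me3 intervals were a feature of HOXB and HOXC. In control, 8 of the 120 HOX intervals (6.67%) were at least 4 kb wide, called broad here, against 2.44% of the whole list, 4 of them in HOXB and 4 in HOXC. After metformin 10 of 113 (8.85%) were, against 2.98% of the list: 6 in HOXB, 3 in HOXC and 1 in HOXA. For H3K27me3 the counts were 0 of 26 in control, against 2.69% of the list, and 3 of 22 (13.6%) after metformin, against 3.32%. These were chr12:54325835-54332016 (6182 bp), which crosses the HOXC13-side edge of HOXC, a 5886-bp interval further inside HOXC, and chr17:46779693-46786401 (6709 bp) in HOXB, which spanned 3 control intervals. The longest HOXB H3K27me3 interval in control was chr17:46781247-46783178 (1932 bp). Whether other gene clusters hold broad intervals as often was not tested.

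The longest HOXB interval kept its place. It was chr17:46655943-46663695 in control (7753 bp) and chr17:46655937-46663919 after metformin (7983 bp), with 21 and 22 sub-peaks. In HOXC the longest control interval of any window, chr12:54401880-54409946 (8067 bp, 22 sub-peaks), overlapped 3 intervals after metformin, and the longest after metformin was chr12:54390905-54396543 (5639 bp). In HOXA the longest was chr7:27201418-27205117 in control (3700 bp), and after metformin a 4314-bp interval at the HOXA2 end that spanned 3 control intervals. In HOXD the longest reached over the window's edge on the HOXD13 side, chr2:176947196-176950904 in control (3709 bp) and chr2:176947623-176950919 after metformin (3297 bp).

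**Figure D4:**
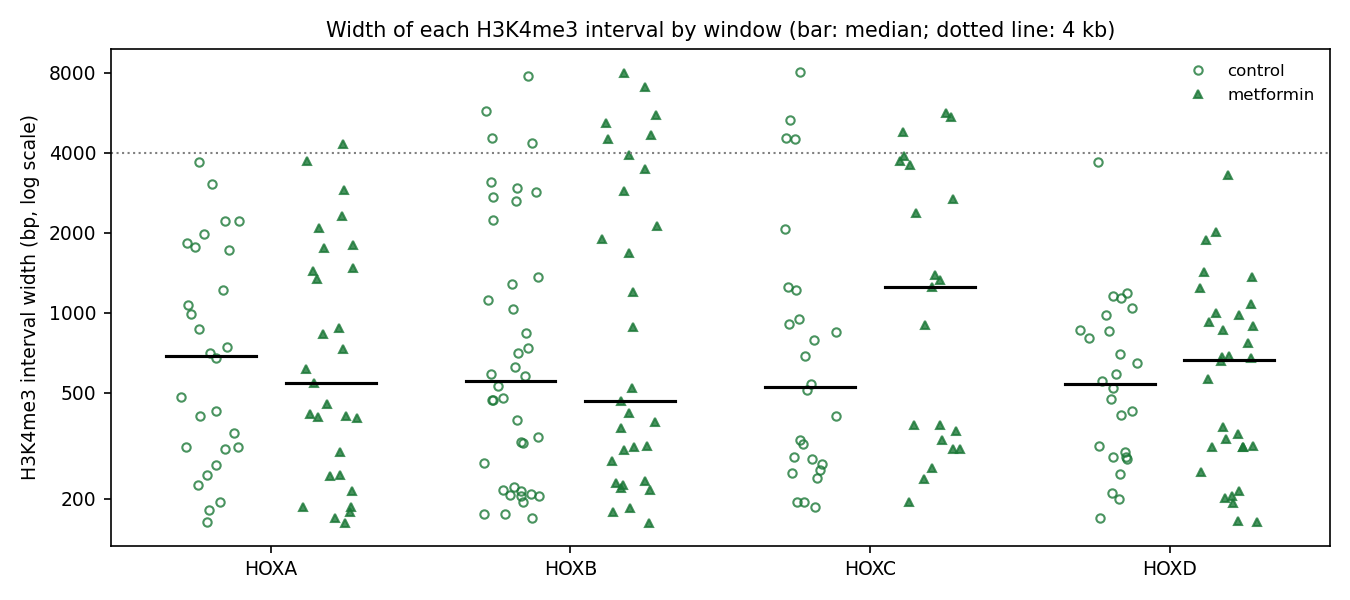
Width in bp (log scale) of each H3K4me3 interval by window and condition; points are intervals, bars are medians and the dotted line marks 4 kb. Intervals above the line lie in HOXB and HOXC, with 1 in HOXA after metformin and none in HOXD.

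The deposited value of an interval, read as the −log10 q of the peak caller, ranks intervals within its own list and is not a signal level. Values of at least 20 were held by 21 of 120 control H3K4me3 intervals (17.5%), against 22.3% of the list, and by 30 of 113 after metformin (26.5%), against 26.3%. By this measure the HOX intervals were close to their lists. The highest value lay in HOXB in both libraries, 53.9 at chr17:46617706-46622272 in control and 76.6 at chr17:46685863-46691430 after metformin. HOX H3K27me3 values ran from 1.17 to 2.48 in control and from 1.15 to 2.53 after metformin. In each whole H3K27me3 list 99.6% of values were under 3. The HOX medians, 1.54 in control and 1.72 after metformin, were above the medians of their lists. The highest HOX values lay in HOXC, in the top 1.81% of the control list and 1.75% of the metformin list. The highest HOXB values were only in the top 30.3% and 43.6%.

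Between conditions, H3K4me3 length in the HOX windows moved about as the whole lists did, with HOXD apart. Metformin H3K4me3 covered 30.7 kb of HOXA (26.7%), 58.0 kb of HOXB (27.6%), 39.8 kb of HOXC (31.8%) and 22.3 kb of HOXD (20.3%). These are 1.07, 1.08, 1.12 and 1.43 times the control lengths. The whole list was 1.12 times longer after metformin, and the 4 windows together 1.13 times (133 and 151 kb). The HOXD ratio was 1.26 when intervals with a value under 5 were dropped, where the list ratio was 1.14, and 1.54 when intervals within 1 kb were merged first.

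H3K27me3 length was higher after metformin in each window. HOXC went from 19.9 to 27.9 kb (1.40 times), HOXB from 4.50 to 9.43 kb (2.09 times), HOXD from 2.09 to 3.56 kb (1.70 times) and HOXA from 0.354 to 0.941 kb (2.66 times). The list ratio was 1.09. In HOXB the direction turned under a stricter limit: with values under 1.5 dropped, 3.54 kb remained in the control library and 1.86 kb in the metformin library, since the 6709-bp metformin interval chr17:46779693-46786401 carries a value of 1.45. HOXC kept its direction under that limit, at 2.01 times the control length. Outside the window, the flank beyond the HOXC13 end was also more covered after metformin, 84.2% against 76.7%. HOXA and HOXD rest on 1 to 5 intervals per library.

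Most HOX intervals were found in both conditions. For H3K4me3, 97 of 120 control intervals (80.8%, 95% Clopper-Pearson interval 72.6 to 87.4) were overlapped by at least 1 bp of the metformin list, against 77.3% of all control intervals. In the other direction 80 of 113 (70.8%, 61.5 to 79.0) were overlapped, against 67.3%. Both list shares lie inside the intervals, which cover counting error only. The H3K4me3 intervals found in 1 condition alone were short, at most 589 bp long in the control list and 674 bp in the metformin list.

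For H3K27me3, 18 of 26 control intervals (69.2%, 48.2 to 85.7) were overlapped, against 48.3% of the list, and 14 of 22 after metformin (63.6%, 40.7 to 82.8), against 46.3%. Both list shares lie inside the Clopper-Pearson intervals here too, the control share just above the lower limit. By window, 13 of 14 control and 11 of 14 metformin intervals were shared in HOXC, and 4 of 6 and 2 of 4 in HOXB. In HOXD 1 of 5 and 1 of 3 were shared, and in HOXA 0 of 1 in each library. Over 1 kb, the H3K27me3 intervals found in 1 condition alone both lay in HOXC after metformin, at chr12:54352489-54354418 (1930 bp) and chr12:54337086-54338576 (1491 bp), in gaps between control intervals of the run.

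H3K4me3 borders were compared only between intervals matched 1 to 1, which leaves out split, joined and unmatched intervals. In the 44 pairs of intervals that overlapped 1 to 1, the median border shift was 106 bp, against 87.0 bp over the 21768 pairs of the lists, and the range was 0 to 1464 bp. At least 1.5 times wider after metformin were 11 pairs, or 7 in the opposite direction; in the lists these were 20.8% and 10.1% of pairs. HOXD gave 7 of the 11: 10 of its 13 pairs were wider after metformin and the median width ratio was 1.67, against 1.06 over the lists. An example is chr2:177005040-177005737 in control (698 bp) against chr2:177004947-177006188 after metformin (1242 bp). The median ratio was 1.00 in HOXA (14 pairs), 0.986 in HOXB (9 pairs) and 1.08 in HOXC (8 pairs).

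H3K27me3 had 10 such pairs, 8 in HOXC and 1 each in HOXB and HOXD. The median border shift was 452 bp, against 406 bp over the lists, and the median width ratio 1.38, against 1.08. At least 1.5 times wider after metformin were 4 pairs, against 36.1% of the list's pairs, and 1 was in the opposite direction, against 29.9%. That 1 was the last interval of the HOXC run, which was 2149 bp wide in the control library and 428 bp in the metformin library. The interval next to it was also narrower after metformin, 438 bp against 613 bp. Further into the run, chr12:54362807-54366630 (3824 bp) was wider after metformin, at chr12:54361863-54367748 (5886 bp).

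**Figure D5:**
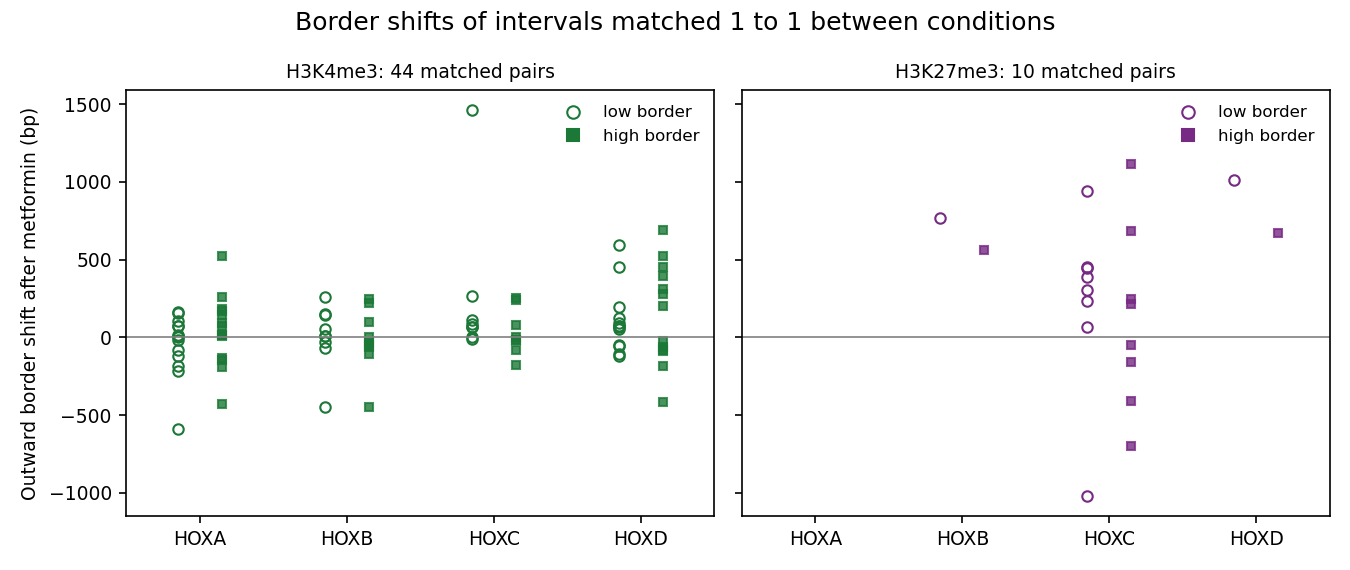
Outward shift in bp of the low border (circles) and high border (squares) of each interval matched 1 to 1 between conditions, by window; values above 0 lie further out after metformin. H3K4me3 borders had a median shift of 106 bp over 44 pairs and H3K27me3 borders 452 bp over 10 pairs, and HOXA has no H3K27me3 pair.

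HOXB and HOXC had fewer H3K4me3 intervals after metformin, which covered more length, and some of these joined several control intervals. After metformin 19 of 113 HOX intervals (16.8%) overlapped 2 or more control intervals, against 12.6% of the list, 7 of 31 in HOXB and 6 of 21 in HOXC. In the opposite direction 12 of 120 control intervals (10.0%) did, against 8.64%. For H3K27me3 this held for 3 of 22 metformin intervals (13.6%), against 6.68% of the list, and for 1 of 26 control intervals (3.85%), against 5.51%. The widest join in HOXB was chr17:46648652-46655735 (7084 bp), which overlapped 4 control intervals. When intervals within 1 kb were merged beforehand, HOXB held 63.1 kb of control and 64.9 kb of metformin H3K4me3, a ratio of 1.03.

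Borders between the marks, as overlaps or gaps of up to 1 kb, were found in HOXC, HOXD and, at its HOXB13 end, HOXB. HOXA had none by this limit. Its nearest intervals of unlike mark, at the HOXA13 end, lay 2913 bp apart in control and 1021 bp after metformin, just over the limit. Over the 4 windows both marks covered 2458 bp in the control lists and 4734 bp in the metformin lists: 1798 and 3390 bp in HOXC, 497 and 879 bp in HOXD, 163 and 465 bp in HOXB, and 0 in HOXA. In control 8 of 120 HOX H3K4me3 intervals (6.67%) were touched by H3K27me3, against 2.78% of the list, and after metformin 9 of 113 (7.96%), against 4.55%. Counting H3K27me3 within 1 kb as well gave 13 (10.8%), against 4.99%, and 15 (13.3%), against 7.40%. The 2 lists come from separate precipitations, so an overlap does not show that both marks sat on the same molecules.

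Neighbouring intervals of unlike mark that overlapped or lay within 1 kb numbered 9 in control (1 in HOXB, 4 in HOXC, 4 in HOXD) and 12 after metformin (2, 5 and 5). Within the windows, the longest overlap was in HOXC at the HOXC13 end, 1575 bp after metformin between H3K4me3 at chr12:54332560-54335252 and H3K27me3 at chr12:54333678-54336059. The control counterparts, chr12:54333576-54334522 and chr12:54334068-54335813, overlapped by 455 bp. Beside it, H3K4me3 at chr12:54331069-54332283 in control and chr12:54330957-54332287 after metformin overlapped H3K27me3 by 936 and 1060 bp. The other HOXC overlaps among the 10 longest within the windows were 220 bp in control and 308 and 253 bp after metformin.

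In HOXD some contacts were nested and the others lay side by side with gaps, which measured 959 and 990 bp in control and 843, 406 and 272 bp after metformin. In control, H3K27me3 at chr2:176970813-176971134 (322 bp) lay inside an H3K4me3 interval. After metformin, H3K4me3 at chr2:176955442-176956115 (674 bp) lay inside the 2176-bp H3K27me3 interval near HOXD13. The HOXD13-side H3K4me3 interval that crosses the window's edge was under H3K27me3 over 212 bp in the control library and 2010 bp in the metformin library, outside the window. At the HOXB13 end, H3K4me3 at chr17:46807085-46807549 (465 bp) lay inside H3K27me3 at chr17:46807022-46808878 after metformin.

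At a scale of 5 kb the layout of the marks was largely shared. A bin was called marked where a mark covered at least 20% of it. Of 112 bins, 50 were unmarked in both conditions and 62 were marked in at least 1. Among these 62, 12 (19.4%) changed class between conditions, against 40.8% of 63133 such bins over chromosomes 1 to 22 and X. These shares are not for a like mix of marks. In control, 45 HOX bins carried H3K4me3 alone and 9 carried H3K27me3 alone. The whole control lists held more H3K27me3 than H3K4me3 intervals (85579 and 50585), and fewer of the former were overlapped after metformin (48.3% against 77.3%). The shares were not compared mark by mark. The changes were 3 in HOXA, 4 in HOXB, 1 in HOXC and 4 in HOXD. No HOX bin passed from 1 mark alone to the other alone, and 0.0634% of bins over the chromosomes did. Bins with both marks numbered 1 in control, at the HOXC13 end, and 4 after metformin: the same HOXC bin, the last bin of HOXB and the first 2 of HOXD. In the HOXC bin H3K4me3 covered 59.1% and 75.4%, and H3K27me3 42.1% and 66.8%.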

How the data were processed

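The data are 4 peak lists of H1299 cells, H3K4me3 and H3K27me3 with and without 5 mM metformin, 1 library each. The submitters' processing notes name Trimmomatic 0.38, Bowtie, MACS2 and hg19; options, background library and sequencing depth were not stated there or in the labels. The deposited value per line has no header and was read as −log10 q: the smallest values, 1.31 for H3K4me3 and 1.01 and 1.00 for H3K27me3, lie just above 1.30 and 1.00, the −log10 of q = 0.05 and q = 0.1. Lines that share an interval were joined with their highest value kept, intervals were clipped to the windows for covered length, and positions are 1-based.

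Intervals were matched at 1 bp of overlap; marks were in contact when overlapping or within 1 kb; broad means at least 4 kb. The overlap code was tested on each control list against a random subset of its own intervals. Its count of control intervals overlapped by the metformin list was checked against bedtools 2.31.1 for each mark. Python 3.11.15, pandas 2.3.3, numpy 2.4.6, scipy 1.17.1 and matplotlib 3.10.9 were used. The windows, genes and lists were chosen with earlier results of these data known. Named intervals are the longest per window, mark and condition, those over 1 kb found in 1 condition alone, and the 10 contacts with the longest overlap; pairs and intervals given as examples were chosen after their values were seen. No genome or gene annotation of hg19 was used here, so intervals are not assigned to exons or introns, no cell type marker was checked, and genes of Polycomb, MLL and HOX cofactors were not analysed here. Alternatives were a stricter value, merging within 1 kb, no clipping, 50% overlap and contact distances of 200 bp and 5 kb.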

Additional observations from a re-analysis of the deposited data

How the results depend on the processing

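Covered length, length under both marks and number of contacts were higher after metformin in 10 of 10 pairs of values as reported, in 9 of 10 with a stricter value (H3K4me3 at least 5, H3K27me3 at least 1.5), in 9 of 10 with intervals within 1 kb merged, and in 8 of 8 covered lengths without clipping. The exceptions were HOXB H3K27me3 under the stricter value and contacts after merging, 9 in control and 7 after metformin. Both whole lists were also longer after metformin, 1.12 times for H3K4me3 and 1.09 times for H3K27me3. The pairs of values are not independent, since overlaps and contacts depend on covered length. The stricter value left 0 kb of H3K27me3 in HOXA control, 0.600 kb in HOXD control and 1.86 kb in HOXB metformin. It gave shared H3K4me3 shares of 87.5% in control and 80.3% after metformin, 455 bp under both marks in control, and 2 contacts in control and 4 after metformin. Contacts within 5 kb numbered 14 in control. When 50% of an interval had to be overlapped, 58.4% of H3K4me3 and 36.4% of H3K27me3 metformin intervals were shared. The causes of these differences were not tested. No paired analysis was possible because each mark and condition has 1 library, and for the same reason none could be left out. Read depth is unknown, so a wider or joined interval after metformin cannot be told apart from a deeper or more enriched library, and an interval missing from a list is not shown to lack the mark.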

Other observations

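Joining H3K4me3 intervals within 1 kb of each other showed how the intervals group along the clusters. HOXD went from 14 such blocks in control to 9 after metformin, and HOXC from 9 to 7, whereas HOXA had 10 and 11 and HOXB 12 and 14. The longest block lay in HOXB in control (19.6 kb) and in HOXC after metformin (18.9 kb, with 18.4 kb in HOXB). In the middle of HOXA, the control blocks chr7:27193736-27197749 and chr7:27198789-27205973 were a single block after metformin, chr7:27192950-27205546 (12.6 kb). In HOXD, the control blocks chr2:176956447-176959485 and chr2:176961443-176962891, on the HOXD13 side, were likewise a single block after metformin, chr2:176954757-176962720 (7.96 kb).

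Some borders of the listed intervals were the same to the base in both libraries or nearly so. In HOXA an H3K4me3 interval started at chr7:27170643 in both, ending at 27171713 in control and 27171520 after metformin, and in HOXC an interval started at chr12:54399979 in both. The longest HOXB interval started at 46655943 in control and 46655937 after metformin. These are examples of small shifts. The median H3K4me3 border shift was 106 bp in the HOX pairs, against 87.0 bp over the lists, where shifts of 0 bp also occurred.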
